A study of Rattus norvegicus with 65 samples.

Results

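Histones are the proteins that DNA is wound around, and their genes fall into 2 classes that were followed here in neonatal rat cardiomyocytes given 5FU, Ace or Dox. Members were the genes of the count table whose rat symbol begins with Hist1h, Hist2h, Hist3h, H1f, H2ac, H2bc, H2az, H2ax, H2aj, H3c, H3f3, H4c, H4f or Macroh2a. They numbered 36 of 14554 genes, of which 26 were replication-dependent and 10 were variants. The classes were set by name and not by measured regulation. Variants were the H1f10, H2az, H2ax, H2aj, H3f3 and Macroh2a genes. All other members, testis genes of the histone clusters included, were counted as replication-dependent. The genes were chosen by symbol, but the family was selected on the level of Hist1h2ai, which was known to be higher in the Dox condition. The Dox levels of the replication-dependent genes are therefore given as a description, with standard errors, and counts of DEGs among them stand beside those of all genes with nothing read from them.

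The cells were primary cardiomyocytes from neonatal rat hearts, kept about 36 h in plating medium and starved of serum overnight before treatment. Hearts of several litters were harvested together and the cells mixed before plating, so that the 65 libraries are parallel cultures of the same mixed cell preparation, and p-values measure only the spread between such cultures. The 5FU condition held 10 mM of the pyrimidine analogue 5-fluorouracil, with 1% DMSO in its control (DMSO1). The Ace condition held 2.5 mM acetaminophen, and the Dox condition held 1.25 µM doxorubicin, which binds DNA and traps topoisomerase II. Both shared the control DMSO2, with 0.25% DMSO, so Ace and Dox differences rest on the same control libraries. Cells were collected after 6 or 24 h. There were 6 libraries each of 5FU at 6 and 24 h, of Ace at 6 h and of DMSO1 at 6 and 24 h, and 7 libraries in each of the other groups. Library totals ran from 14332827 to 25738297 estimated counts. The 8 cardiomyocyte markers examined summed to between 34789 and 63654 CPM (counts scaled to the TMM-adjusted library size) in the 26 DMSO libraries, and 8 fibroblast markers to between 6495 and 19903 CPM, so the cultures were not cardiomyocytes alone.

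Replication-dependent histone genes lie in clusters, lack introns and are transcribed mostly in S phase, when new DNA must be packed. Their mRNAs usually end in a stem-loop bound by SLBP in place of a polyA tail, although polyadenylated forms are known, among others in differentiated and arrested cells. Variant histones are mostly encoded by single genes with polyadenylated mRNAs that are made outside S phase too (H2ax also makes a stem-loop form), and they replace the canonical histones at particular places in chromatin. The libraries here were made from polyA-selected RNA. A larger amount of a replication-dependent or H2ax mRNA and a larger polyadenylated share of it cannot be told apart in these data, and neither can less RNA per cell and fewer cells of a type.

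Of the 26 replication-dependent genes, 23 lie on chromosome 17, 2 on chromosome 2 and 1 on chromosome 10, and they encode 5 linker histones H1, 7 H2A, 10 H2B, 1 H3 and 3 H4 proteins. Another 56 of the 92 annotated symbols that the rule takes were not among the genes analysed. Many H2A, H2B or H4 genes are close to identical in coding sequence to others of their type. The split of reads between such copies, which rests on the transcript assignment, is uncertain. Only 16 of the 26 reached 10 counts in at least 6 of the 26 DMSO libraries. The other 10 were at most 0.642 CPM in any DMSO library. They had their highest median in a drug group (9 with Dox at 24 h, H1f6 with Ace at 6 h). The authors had removed genes that were low in all samples, so genes this low in the controls may be present only through such a group. Counts of DEGs and medians below therefore cover the 16, and the 10 are given as values. Shares of all genes are over the 14554 unless stated, and medians of all genes are over the 13774 that pass the same control minimum. By the rule for naming genes (variants, and replication-dependent genes with a mean count of at least 100), 17 members were named. Any other member was named after its values were seen.

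The sequences before the transcription starts are shown for 4 members that represent the patterns described below. Hist1h2ai (H2A) showed the Dox pattern and shares its promoter region with Hist1h2bo (H2B), which is read in the opposite direction from a start 264 bases away. Hist3h2ba (H2B) lies outside the main cluster, H1f2 (linker histone H1.2) had a small Dox difference, and H3f3b encodes the variant H3.3. Each line gives the 250 bases before the start in assembly GRCr8, from RefSeq, 5′ to 3′ on the strand of the gene. Capitals mark matches to 3 motifs, which did not overlap in these lines. They are the CCAAT box, a TATA box spelled as TATAAA, and the octamer known from H2B promoters, spelled as ATTTGCAT. Both strands were searched, so that a match on the other strand stands as its reverse complement.
Hist1h2ai, chr17:47413803-47414052, plus strand: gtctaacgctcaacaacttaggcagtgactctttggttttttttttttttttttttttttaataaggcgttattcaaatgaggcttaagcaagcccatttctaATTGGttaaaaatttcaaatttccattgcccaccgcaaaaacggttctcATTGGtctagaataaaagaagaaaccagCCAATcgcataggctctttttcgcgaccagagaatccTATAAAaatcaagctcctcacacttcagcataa
Hist3h2ba, chr10:44225171-44225420, plus strand: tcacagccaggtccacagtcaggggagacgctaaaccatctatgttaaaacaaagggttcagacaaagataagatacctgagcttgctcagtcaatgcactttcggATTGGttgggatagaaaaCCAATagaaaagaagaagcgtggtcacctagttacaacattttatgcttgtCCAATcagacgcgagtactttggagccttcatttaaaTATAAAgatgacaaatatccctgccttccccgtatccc
H1f2, chr17:41820454-41820703, minus strand: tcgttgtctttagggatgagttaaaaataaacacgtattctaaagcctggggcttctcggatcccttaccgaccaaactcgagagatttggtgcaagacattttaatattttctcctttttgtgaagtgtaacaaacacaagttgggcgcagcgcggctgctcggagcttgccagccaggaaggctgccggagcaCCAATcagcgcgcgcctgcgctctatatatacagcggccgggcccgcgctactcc
H3f3b, chr10:101757637-101757886, minus strand: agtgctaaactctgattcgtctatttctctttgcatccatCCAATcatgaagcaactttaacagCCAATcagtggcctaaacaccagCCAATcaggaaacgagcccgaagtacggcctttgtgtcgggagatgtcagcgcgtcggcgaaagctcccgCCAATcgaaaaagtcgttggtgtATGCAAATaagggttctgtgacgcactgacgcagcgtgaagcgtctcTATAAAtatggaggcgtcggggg

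Hist1h2ai has 3 CCAAT boxes, 2 of them in reverse, and TATAAA 33 bases before its start. Hist3h2ba likewise has 3 CCAAT boxes and TATAAA 38 bases before the start, whereas H1f2 has 1 CCAAT box and no TATAAA in these letters. H3f3b has 4 CCAAT boxes, a reversed octamer and TATAAA 23 bases before the start. Promoter windows of 300 bases, from 250 before to 50 after the start, were at hand for 34 members. All 25 replication-dependent windows held CCAAT, as did 6 of 9 variant windows and 37.7% of all 27457 windows. TATAAA stood in 19 of the 25, in 3 of the 9 and in 14.3% of all windows. The octamer stood in 8 of the 25, in 1 of the 9 and in 1.64% of all windows. The windows are not independent of each other, since 3 pairs of H2A and H2B genes (Hist1h2ai with Hist1h2bo, H2ac12 with H2bc12, and H2ac1 with H2bc1) start head to head and share most of their window. A match of letters is a description and not evidence of a bound site.

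The summed level of the 26 replication-dependent genes was highest with Dox at 24 h. The sum includes the 10 genes under the control minimum, 9 of which had their highest median in that group. H1f1 was the highest of these there, at 23.7 to 29.03 CPM. Over the 26 DMSO libraries the sum lay between 93.6 and 152 CPM, with a median of 109 CPM. Per group, the lowest, median and highest sums were 156, 170.0 and 195 CPM with Dox at 6 h, and 738, 745 and 804 CPM at 24 h. Each Dox library at either time stood above every DMSO library, and those at 24 h stood above every other library of the study. With Ace the sums were 208, 231 and 238 CPM at 6 h and 167, 172 and 198 CPM at 24 h, again above every DMSO library. With 5FU they were 163, 184 and 468 CPM at 6 h and 102, 108 and 110.0 CPM at 24 h. The 5FU libraries were above their control at 6 h, and at 24 h they were below it, since the DMSO1 libraries then ran from 112 to 152 CPM. H1f2 made up much of these sums. Without it the other 25 genes summed to 63.7, 68.04 and 71.3 CPM with 5FU and 44.2, 47.4 and 67.2 CPM in DMSO1 at 24 h, which overlapped, with the 5FU median the higher. The highest 5FU library at 6 h, library 1, stood apart at 468 CPM, with the other 5 between 163 and 191 CPM.

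The variant sums differed less between groups. They were between 872 and 1091 CPM in the DMSO libraries. The lowest, median and highest sums were 1570.1, 1713 and 1761 CPM with Dox at 6 h and 1816, 1832 and 1948 CPM at 24 h. With Ace they were 1261, 1315 and 1407 CPM at 6 h and 1168, 1194 and 1233 CPM at 24 h, and with 5FU 1159, 1222 and 1415 CPM and 1009, 1065 and 1105 CPM. All drug groups except 5FU at 24 h lay above every DMSO library. Against DMSO1 at 24 h, with 872 to 1014 CPM, the 5FU libraries at 24 h overlapped the controls. H3f3b made up much of the variant sums, at 798 to 865 CPM with Dox and 195 to 237 CPM in DMSO2 at 24 h. H3f3c, listed as a pseudogene, was at 294 to 400 and 259 to 345 CPM in these groups. The sums without these genes were not computed.

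**Figure D1:**
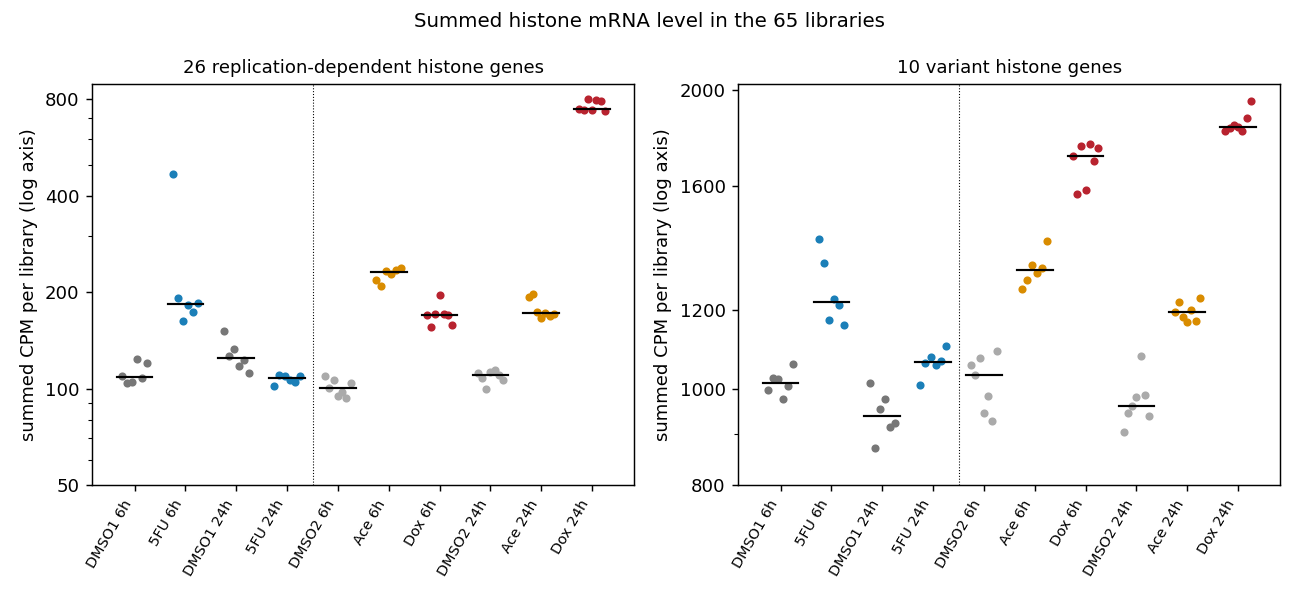
Summed CPM (log axis) of the 26 replication-dependent (left) and 10 variant (right) histone genes in each of the 65 libraries, by group. Points are libraries, bars are group medians, and the dotted line parts the DMSO1 from the DMSO2 experiments. The 7 Dox libraries at 24 h sit between 738 and 804 CPM on the left, above all others, and 5FU library 1 at 6 h stands at 468 CPM.

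The H2A genes had some of the largest Dox differences. Hist1h2ai, a cluster H2A gene, had lowest, median and highest values of 3.99, 5.19 and 5.804 CPM in DMSO2 at 6 h and 3.03, 3.59 and 3.83 CPM at 24 h. With Dox the values were 15.2, 19.1 and 22.99 CPM at 6 h and 129, 136 and 147 CPM at 24 h. No Dox library overlapped its control, and the log2 fold change was 1.93 ± 0.090 (SE) at 6 h and 5.26 ± 0.10 at 24 h. Hist2h2aa2, an H2A gene on chromosome 2, went from 6.58, 8.47 and 9.04 CPM in DMSO2 at 24 h to 135, 143 and 149.6 CPM with Dox. Its log2 fold change was 0.92 ± 0.15 at 6 h and 4.14 ± 0.16 at 24 h, without overlap at either time. Among the H2A genes of lower count, Hist1h2an, H2ac12 and Hist1h2af had log2 fold changes of 5.76, 4.24 and 4.04 at 24 h.

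The H2B partner of Hist1h2ai moved with it, but less. Hist1h2bo was at 1.704, 1.91 and 2.41 CPM in DMSO2 at 24 h and at 31.6, 35.7 and 42.9 CPM with Dox. The groups did not overlap, and the log2 fold change was 1.56 ± 0.13 at 6 h and 4.18 ± 0.12 at 24 h. The ratio of Hist1h2ai to Hist1h2bo counts was 1.56, 1.80 and 2.10 (lowest, median and highest) in DMSO2 at 24 h and 3.13, 3.82 and 4.45 with Dox at 24 h. The ratios did not overlap between these groups, although at 6 h they did. In DMSO1 at 24 h the ratio was 1.82 to 3.71, and with Ace at 24 h it was 2.34 to 3.82. Both overlapped Dox at 24 h, so the separation did not hold against the other control of that time. Hist1h2ai is also the gene on which the family was selected, so nothing is read from its larger difference. Hist3h2ba, an H2B gene on chromosome 10, went from 1.55, 2.75 and 3.31 CPM to 30.5, 38.05 and 42.3 CPM at 24 h, a log2 fold change of 3.91 ± 0.12. H2bc6, a cluster H2B gene, had a smaller difference of 1.99 ± 0.10, from 14.9, 15.3 and 20.2 CPM to 61.2, 63.5 and 69.3 CPM, also without overlap.

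H4cl1, an H4 gene of the cluster, was at 1.93, 2.68 and 3.49 CPM in DMSO2 at 24 h and at 108, 113 and 124 CPM with Dox. Its log2 fold change went from 1.06 ± 0.14 at 6 h to 5.33 ± 0.15 at 24 h, and the groups were apart at both times. The only H3 gene of the clusters in the table, Hist1h3b, was at 0.691, 1.14 and 1.21 CPM in DMSO2 and 17.8, 21.1 and 27.6 CPM with Dox at 24 h, a log2 fold change of 4.38 ± 0.14. Over the 16 genes measured in the controls, log2 fold changes with Dox at 24 h ran from 0.39 to 2.93 for 3 H1 genes, 4.04 to 5.76 for 5 H2A genes, 1.99 to 4.18 for 5 H2B genes and 3.42 to 5.33 for 2 H4 genes.

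The linker histone H1f2 had far smaller Dox differences, although its groups did not overlap either. Its values with Dox were 50.5, 58.9 and 72.8 CPM at 6 h and 77.996, 81.7 and 99.6 CPM at 24 h, beside 42.3, 45.97 and 47.1 and 61.3, 67.2 and 71.1 CPM in DMSO2. The log2 fold change was 0.37 ± 0.14 at 6 h and 0.39 ± 0.14 at 24 h. The call at 24 h was lost in 8 of 14 fits that left out 1 library each. H1f5, another linker histone, went from 0.165, 0.691 and 0.899 CPM to 3.86, 4.84 and 5.96 CPM (log2 fold change 2.93 ± 0.21), while H1f4 overlapped its control and had 0.56 ± 0.31.

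The counts with Dox are a description, because the family was selected on the Dox level of Hist1h2ai, and no conclusion is drawn from the tests. Of the 16 replication-dependent genes measured in the controls, 11 were DEGs (FDR < 0.01) higher with Dox at 6 h and 0 were lower. Of all genes 31.5% were higher and 32.7% lower, and of those passing the same control minimum 31% and 34.4%. Of the 16, DESeq2 called 12 higher and 0 lower, and 0 were lower at an unadjusted p below 0.05 in edgeR. Their median log2 fold change was 0.74, against -0.020 over the 13774 genes that pass the same control minimum. At 24 h 15 of the 16 were higher, with H1f4 the exception, and 0 were lower, also in DESeq2 and at an unadjusted p below 0.05. Of all genes 40.4% were higher and 41% lower, and of those passing the control minimum 38.4% and 43.2%. The median of the 16 was 3.98, against -0.054 over all genes on the same basis. All 15 had every Dox library above every DMSO2 library, which held for 33.6% of all genes and 31.9% of those passing the control minimum. At 6 h this held for 10 of the 16, for 19.7% of all genes and for 19.3% of those passing the minimum. Over all 58 other libraries, the 7 Dox libraries at 24 h were above each of them for 12 of the 16 genes and 3 of the 10 variants, and for 15.3% of the 13774 genes on the same basis. The exceptions among the 16 were H1f2, H1f4, H2bc12 and Hist2h2be. The 24-hour Dox difference exceeded that at 6 h for 13 of the 16 and was smaller for 0, where 34% and 30.8% of all genes had a larger or a smaller difference at FDR < 0.01.

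Of the 10 genes at or near 0 counts in the controls, 9 had their highest group median with Dox at 24 h. Such genes may have stayed in the table only through the group where they are high. This count and the folds below are therefore a description. H1f1, a linker histone, had 0.0582, 0.266 and 0.642 CPM in DMSO2 at 24 h, 0.878, 1.503 and 1.7999 CPM with Dox at 6 h and 23.7, 26.2 and 29.03 CPM at 24 h. Hist1h2bd, an H2B gene, had 0, 0.142 and 0.3303 CPM and 11.6, 12.8 and 15.3 CPM in DMSO2 and Dox at 24 h. For 5 others all DMSO2 libraries at 24 h held 3 counts or fewer, and the fold is a lower bound set against 3 counts per library. It was at least 35.8-fold for H2bc9, 31.5-fold for H2ac1 and 19.8-fold for H2bc1, of which H2ac1 and H2bc1 are the head-to-head pair known from testis. It was at least 14.6-fold for H2ac4 and 12.9-fold for H4cl3. H2bc8 and H2bc12l1 were at most 1.52 and 2.096 CPM with Dox at 24 h. H1f6, the testis linker histone, overlapped its control, at 0.173 to 0.723 CPM with Dox and 0.0535 to 0.233 CPM in DMSO2.

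**Figure D2:**
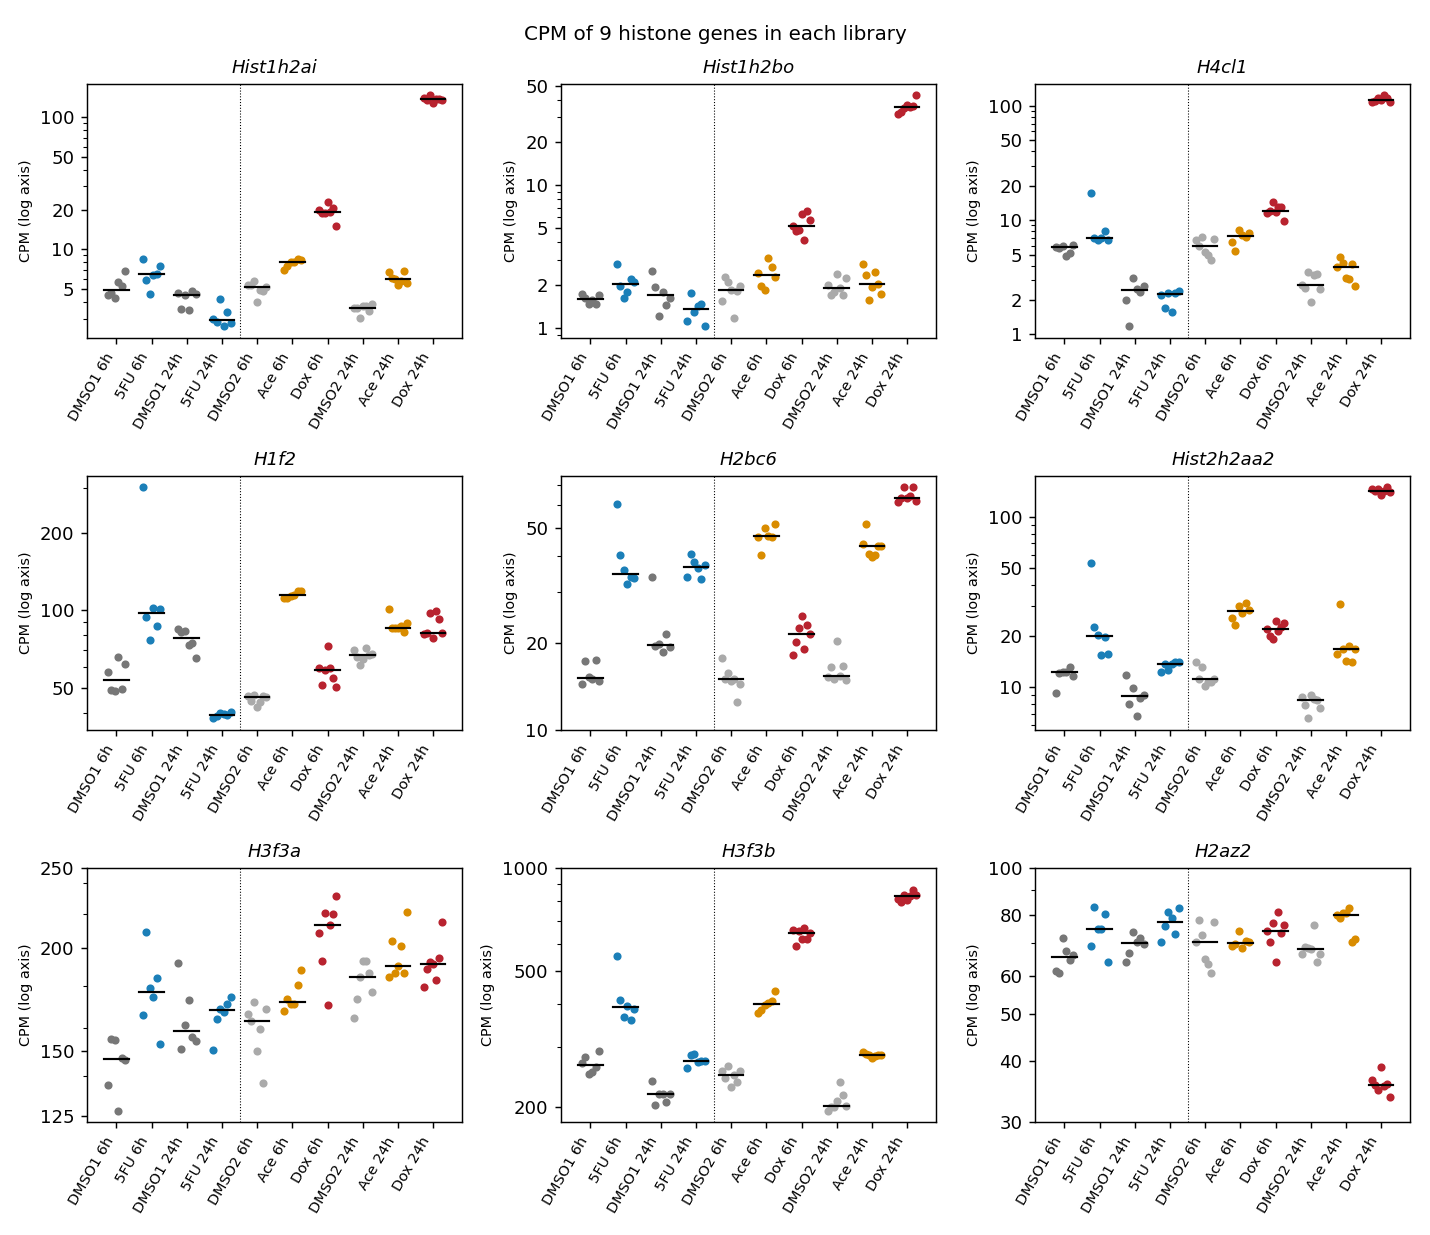
CPM (log axes, each panel with its own range) of 9 histone genes in each library by group. Points are libraries and bars are group medians. Hist1h2ai, Hist1h2bo, H4cl1 and Hist2h2aa2 are highest with Dox at 24 h, H1f2 peaks at 6 h with 5FU and Ace, and H2az2 is lowest with Dox at 24 h, at 33.9 to 38.97 CPM.

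The variants divided with Dox at 24 h, also within pairs that encode the same or nearly the same protein. H3f3a and H3f3b both encode H3.3, the H3 variant laid down outside S phase. H3f3b was at 195, 201 and 237 CPM in DMSO2 and 798, 829.2 and 865 CPM with Dox at 24 h, above every other library of the study, and already at 593, 645 and 669 CPM at 6 h. The log2 fold change was 1.36 ± 0.053 (SE), FDR = 2.80e-32 at 6 h, and 1.98 ± 0.054 (SE), FDR = 1.29e-41 at 24 h. H3f3a was at 165, 184 and 193 and 179, 191 and 215 CPM in the same groups at 24 h, which overlapped. Its log2 fold change was 0.38 ± 0.058 (SE), FDR = 3.62e-08 at 6 h, and 0.081 ± 0.058 (SE), FDR = 0.187 at 24 h, with a 95% interval of -0.033 to 0.20. H3f3c, which the annotation lists as a pseudogene, kept close to H3f3a: the ratio of their counts was 1.38 to 1.86 over the 65 libraries. Since such copies share sequence, their separate values are uncertain. H3f3c counted as higher with Dox at 24 h (0.18), unlike H3f3a, but its call was lost in 7 of 14 fits that left out 1 library each.

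H2A.Z, the variant found beside transcription starts, is encoded by H2az1 and H2az2, and these moved in opposite directions. H2az1 was at 42.7, 47.4 and 50.5 CPM in DMSO2 and 71.8, 74.9 and 80.3 CPM with Dox at 24 h, and H2az2 at 64.2, 68.2 and 76.3 and 33.9, 35.8 and 38.97 CPM. Neither overlapped its control, where 33.6% of all genes had every Dox library above every control. The log2 fold changes were 0.67 ± 0.059 (SE), FDR = 3.25e-16 for H2az1, and -0.93 ± 0.053 (SE), FDR = 1.04e-24 for H2az2. H2az2 was the only variant lower with Dox at 24 h, with all 7 libraries below the controls, as 34.6% of all genes had, and at 6 h it overlapped its control with a log2 fold change of 0.083 ± 0.052. The change of the H2az2 difference between the times was -1.01 ± 0.074 (SE), FDR = 4.54e-19.

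H2ax, whose phosphorylated protein marks DNA breaks, was at 51.8, 56.1 and 57.6 CPM in DMSO2 and 109.5, 129 and 131 CPM with Dox at 24 h. The difference was 1.16 ± 0.078 (SE), FDR = 1.55e-21, after 0.79 ± 0.076 at 6 h. H2aj, an H2A variant known to build up in senescent cells with DNA damage, went from 14.3, 18.4 and 20.9 to 65.97, 71.7 and 80.4 CPM (2.02 ± 0.090 (SE), FDR = 2.38e-30). H1f10, the linker variant H1.10, went from 15.2, 24.8 and 29.3 to 72.8, 97.6 and 109 CPM (2.003 ± 0.14 (SE), FDR = 1.79e-20). None of the 3 overlapped its control. Every Dox library at 24 h was above every control for 6 of the 10 variants and for 33.6% of all genes. The macroH2A genes, whose products carry a large extra domain and are associated with silent chromatin, differed less. Macroh2a1 had 0.48 ± 0.045 (SE), FDR = 2.56e-15 and Macroh2a2 had -0.031 ± 0.075 (SE), FDR = 0.704, the latter with overlapping groups and a sign that turns with the scaling. Over the 10 variants, 9 were higher and 0 lower with Dox at 6 h, where 31.5% of all genes were higher and 32.7% lower, and DESeq2 and an unadjusted p below 0.05 gave the same counts. At 24 h 7 were higher and 1 lower, where 40.4% and 41% of all genes were.

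With Ace, H2bc6, Hist2h2aa2 and Hist1h2ai were higher at both times and H1f2 at 6 h. H2bc6 was at 12.5, 14.9 and 17.7 CPM in DMSO2 and 40.2, 46.6 and 51.3 CPM with Ace at 6 h, and at 14.9, 15.3 and 20.2 and 39.4, 43.1 and 51.3 CPM at 24 h. The difference was 1.64 ± 0.10 (SE), FDR = 1.53e-20 at 6 h, and 1.40 ± 0.10 (SE), FDR = 1.15e-18 at 24 h, without overlap. H1f2 was at 112, 115 and 119 CPM with Ace at 6 h and 82.6, 85.8 and 101 CPM at 24 h. Both groups lay above their controls, with 1.35 ± 0.14 (SE), FDR = 1.17e-11 at 6 h, and 0.40 ± 0.14 (SE), FDR = 0.0135 at 24 h, which misses the threshold. The fall of the H1f2 difference between the times was -0.95 ± 0.20 (SE), FDR = 2.65e-04. Hist2h2aa2 had 1.25 ± 0.16 (SE), FDR = 1.14e-09 at 6 h, and 1.14 ± 0.16 (SE), FDR = 1.87e-08 at 24 h. Hist1h2ai had 0.64 ± 0.10 (SE), FDR = 2.06e-07 at 6 h, and 0.76 ± 0.10 (SE), FDR = 6.43e-09 at 24 h, and H4cl1 was no DEG at either time (0.26 ± 0.15 and 0.38 ± 0.17).

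In counts, 6 of 16 replication-dependent genes were higher and 0 lower with Ace at 6 h, also in DESeq2, where 16.5% of all genes were higher and 15.2% lower. At 24 h 8 were higher and 1 (H2bc12, at -1.54 ± 0.43) was lower, where 18.2% of all genes were higher and 19.1% lower. The medians were 0.36 and 0.63, against 0.0017 and -0.0048 over all genes on the same basis. All Ace libraries were above all controls for 5 of the 16 at 6 h and 7 at 24 h, and for 12.4% and 13.2% of all genes. For 1 gene (Hist3h2ba) the 24-hour difference was larger and for 1 (H1f2) smaller, where 5.58% and 6.06% of all genes were in each direction. The testis gene H1f6, at 2 counts or fewer in every DMSO2 library at 6 h, had 1.07, 1.298 and 1.67 CPM with Ace at 6 h, at least 8.999-fold above a floor of 3 counts. It was back at 0.138, 0.312 and 0.436 CPM at 24 h. Every Ace library at 6 h was above every other library of the study for this gene, on 20 to 32 counts each.

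Among the variants, 4 were higher and 0 lower with Ace at 6 h in edgeR and in DESeq2 (2 lower at an unadjusted p below 0.05), where 16.5% of all genes were higher and 15.2% lower. At 24 h 6 were higher and 1 lower, where 18.2% and 19.1% of all genes were. H2ax was at 75.3, 79.6 and 87.9 CPM in DMSO2 and 156, 162 and 173 CPM with Ace at 6 h (1.01 ± 0.079 (SE), FDR = 1.43e-16), and at 24 h the difference was 0.88 ± 0.077 (SE), FDR = 4.44e-15. H3f3b had 0.70 ± 0.055 (SE), FDR = 1.98e-16 at 6 h, and 0.45 ± 0.053 (SE), FDR = 1.18e-10 at 24 h, whereas H3f3a was no DEG (0.14 ± 0.061 and 0.11 ± 0.058). H1f10 was higher at both times (0.64 and 0.89), and so was H2az1 (0.22 and 0.54). The variant lower at 24 h was Macroh2a2, at -0.29 ± 0.075 (SE), FDR = 0.00106. This call was lost when counts were scaled by library size alone (-0.23, FDR = 0.0211).

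With 5FU H1f2 was higher at 6 h and lower at 24 h, whereas H2bc6 and Hist2h2aa2 were higher at both times. H1f2 had lowest, median and highest values of 48.7, 53.4 and 66.1 CPM in DMSO1 and 76.95, 97.8 and 302 CPM with 5FU at 6 h. At 24 h it had 65.02, 78.4 and 84.6 CPM in DMSO1 and 38.02, 39.3 and 40.3 CPM with 5FU. The 5FU libraries were above their control at 6 h and below it at 24 h. The differences were 1.196 ± 0.15 (SE), FDR = 4.63e-10 at 6 h, and -0.98 ± 0.15 (SE), FDR = 1.12e-07 at 24 h, and the change between the times was -2.17 ± 0.21 (SE), FDR = 6.63e-13. Without library 1 of 5FU at 6 h the first difference was 0.73, more than 1.5 times smaller on the log2 scale. H2bc6 was higher at both times, with 1.32 ± 0.11 (SE), FDR = 2.02e-16 at 6 h, and 0.72 ± 0.11 (SE), FDR = 2.87e-08 at 24 h, and Hist2h2aa2 likewise, with 1.05 ± 0.16 (SE), FDR = 1.38e-07 and 0.57 ± 0.18 (SE), FDR = 0.003996. Without library 1 the 6-hour values were 1.15 for H2bc6 and 0.66 for Hist2h2aa2, and both remained DEGs. At 24 h the call of Hist2h2aa2 was lost without library 4 of DMSO1 (0.50, FDR = 0.0165). At 6 h H4cl1 (0.65) and Hist1h2ai (0.34) lost the call without library 1 of 5FU, with 0.34 and 0.25. Hist1h2ai lost it in 5 of 12 fits that left out 1 library each.

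At 6 h 6 of the 16 replication-dependent genes were higher and 1 lower with 5FU, where 23.4% of all genes were higher and 24.5% lower. Without library 1 these counts were 4 and 0. All 5FU libraries were above all controls for 4 of the 16 at 6 h and 1 at 24 h, and for 13.8% and 22.3% of all genes, and H1f2 was the 1 gene with all below at 24 h, where 20.6% of all genes were. At 24 h 3 were higher (H2bc6, Hist2h2aa2 and Hist3h2ba, at 0.76 ± 0.14) and 4 lower (H1f2, H4f3, Hist1h3b and Hist1h2ai), where 28% of all genes were higher and 27.8% lower, so neither share lay far from the background. Hist1h2ai was at 3.51, 4.54 and 4.87 CPM in DMSO1 and 2.63, 2.901 and 4.196 CPM with 5FU at 24 h, with overlap (-0.45 ± 0.12 (SE), FDR = 9.81e-04). The medians over the 16 were 0.36 at 6 h and -0.47 at 24 h, against -0.0078 and -0.0097 over all genes on the same basis. For 8 of the 16 the 24-hour difference was below that at 6 h and for 1 it was above, where 19.2% and 20.3% of all genes were in each direction. In fits that left out 1 library each, 6 to 9 of the 16 had such a change in either direction.

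Of the variants 6 were higher and 1 lower with 5FU at 6 h, where 23.4% of all genes were higher and 24.5% lower, and 5 were higher and 1 lower at 24 h, where 28% and 27.8% were. H2az1 changed only at 24 h, from 37.6, 47.4 and 61.8 CPM in DMSO1 to 80.2, 82.3 and 89.2 CPM with 5FU (0.79 ± 0.064 (SE), FDR = 6.42e-17), and the change between the times was 0.86 ± 0.090 (SE), FDR = 4.36e-12. Macroh2a1 was higher at 24 h (0.47 ± 0.049 (SE), FDR = 6.27e-13) and Macroh2a2 lower (-0.60 ± 0.084 (SE), FDR = 7.71e-09). H3f3b had 0.62 ± 0.057 (SE), FDR = 1.26e-14 at 6 h, and 0.34 ± 0.057 (SE), FDR = 5.23e-07 at 24 h. H2ax, higher with Ace and Dox at 6 h, had -0.19 ± 0.082 (SE), FDR = 0.04199 with 5FU at 6 h. Its DMSO1 libraries at 6 h were themselves above those of DMSO2 (91.1 to 119 against 75.3 to 87.9 CPM, without overlap, as for 2.4% of all genes), and the value without library 1 was -0.32, then a DEG.

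**Figure D3:**
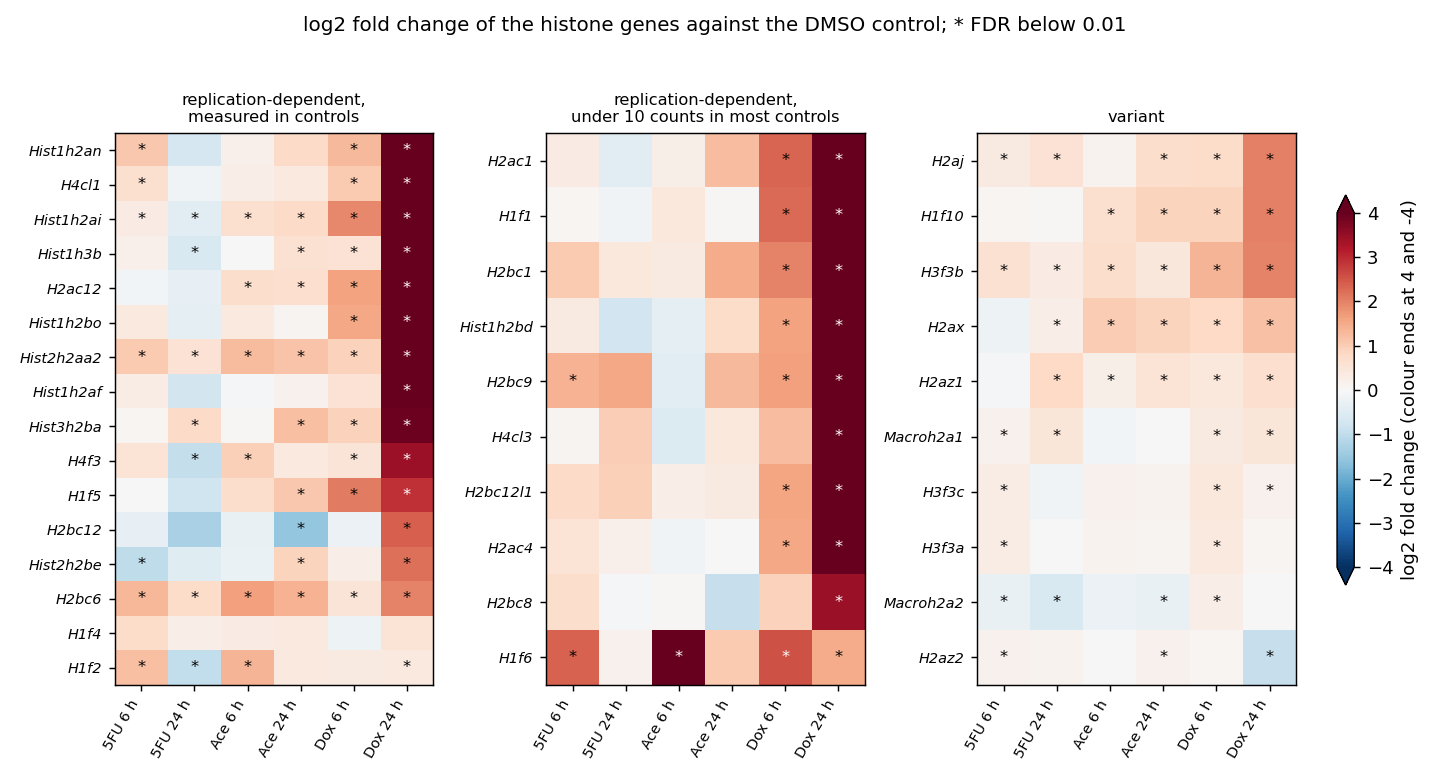
Heat map of log2 fold changes of the 36 histone genes (rows, by class and by whether they were measured in the controls) against the matching DMSO control in 6 comparisons (columns). Red is higher and blue lower than the control, colours end at 4 and -4, and stars mark FDR below 0.01. In the last column 15 of the 16 replication-dependent genes measured in the controls are called higher. The variants range there from -0.93 for H2az2 to 2.02 for H2aj. The other replication-dependent panel holds 10 genes that may have stayed in the table only through a drug group, so nothing is read from its colours.

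Between DMSO1 and DMSO2, 0 of 16 replication-dependent genes were DEGs in edgeR at 6 or 24 h. At an unadjusted p below 0.05 there were 2 at 6 h and 3 at 24 h, and DESeq2 called 0 and 1. Of the variants, H2ax was higher at 6 h (0.38 ± 0.079 (SE), FDR = 2.18e-04) and 0 differed at 24 h in edgeR or DESeq2, with 2 at an unadjusted p below 0.05. The share of all genes higher and lower was 9.87% and 6.6% at 6 h, and 0.137% and 0.295% at 24 h. From 6 to 24 h in the controls, 8 of the 16 fell and 2 rose, where 31.9% of all genes fell and 32.7% rose. H4cl1 fell by 1.16 ± 0.12 and Hist3h2ba by 0.99 ± 0.095 on the log2 scale, while H1f2 rose (0.52 ± 0.10) and H2bc6 rose (0.31 ± 0.076). Of the variants H2ax, H2aj, H2az1 and H3f3b fell and H3f3a and H3f3c rose.

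Other lists of genes around histones were set beside the members. The first held genes for transcription, 3′ end processing and decay of histone mRNA, of which 17 of 19 were in the table. Slbp, the stem-loop binding protein, had log2 fold changes of -0.11 and 0.16 with Dox at 6 and 24 h, neither a DEG, and was higher with 5FU (0.90 at 6 h) and with Ace (0.45 at 6 h and 0.57 at 24 h). Npat, which activates histone gene transcription, was higher with Dox at both times (0.76 and 0.49). Lsm11, a subunit of the U7 particle that cuts histone pre-mRNA, fell with Dox by 1.09 at 6 h and by 1.77 at 24 h on the log2 scale. Its partner Lsm10 fell by 0.85 and 0.23. Over the 17 genes, 8 were higher and 5 lower with Dox at 24 h (median 0.35), where 40.4% of all genes were higher and 41% lower. At 6 h 3 were higher and 5 lower, where 31.5% and 32.7% of all genes were.

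Of 29 histone chaperones and deposition factors, 27 were in the table, and 11 were higher and 8 lower with Dox at 24 h (median 0.14), where 40.4% of all genes were higher and 41% lower. Asf1b, the chaperone of new H3 and H4 in proliferating cells, was higher (2.76), as was Nasp (1.09), a chaperone of soluble H3 and H4, and Anp32e (1.19), which removes H2A.Z. Hat1, which acetylates new H4, fell by 1.82 on the log2 scale, and Ssrp1, a subunit of FACT, by 0.84. With Ace at 24 h 14 were higher and 1 lower, where 18.2% and 19.1% of all genes were, with Asf1b at 1.72. With 5FU at 24 h 11 were higher and 6 lower, where 28% and 27.8% were, with Hat1 at 0.84.

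The third list held 23 genes of S phase and proliferation, all in the table. With Dox at 24 h 14 were higher and 7 lower (median 0.45), where 40.4% of all genes were higher and 41% lower. E2f1, a transcription factor of S phase entry, was higher (3.59), and so was Cdt1, which licenses replication origins (2.06). Mcm2, a subunit of the replicative helicase, fell by 2.07 and Top2a, the topoisomerase II of dividing cells, by 1.15 on the log2 scale. With Ace at 24 h 22 of the 23 were higher and 0 lower, where 18.2% and 19.1% of all genes were. In the controls 20 fell and 0 rose from 6 to 24 h (median -1.02), where 31.9% of all genes fell and 32.7% rose. With 5FU at 24 h 6 were higher and 2 lower, where 28% and 27.8% of all genes were. Of the 6 drug comparisons, the S-phase list had its highest median with Ace at 24 h. The relation of this list to the histone levels was not tested.

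**Figure D4:**
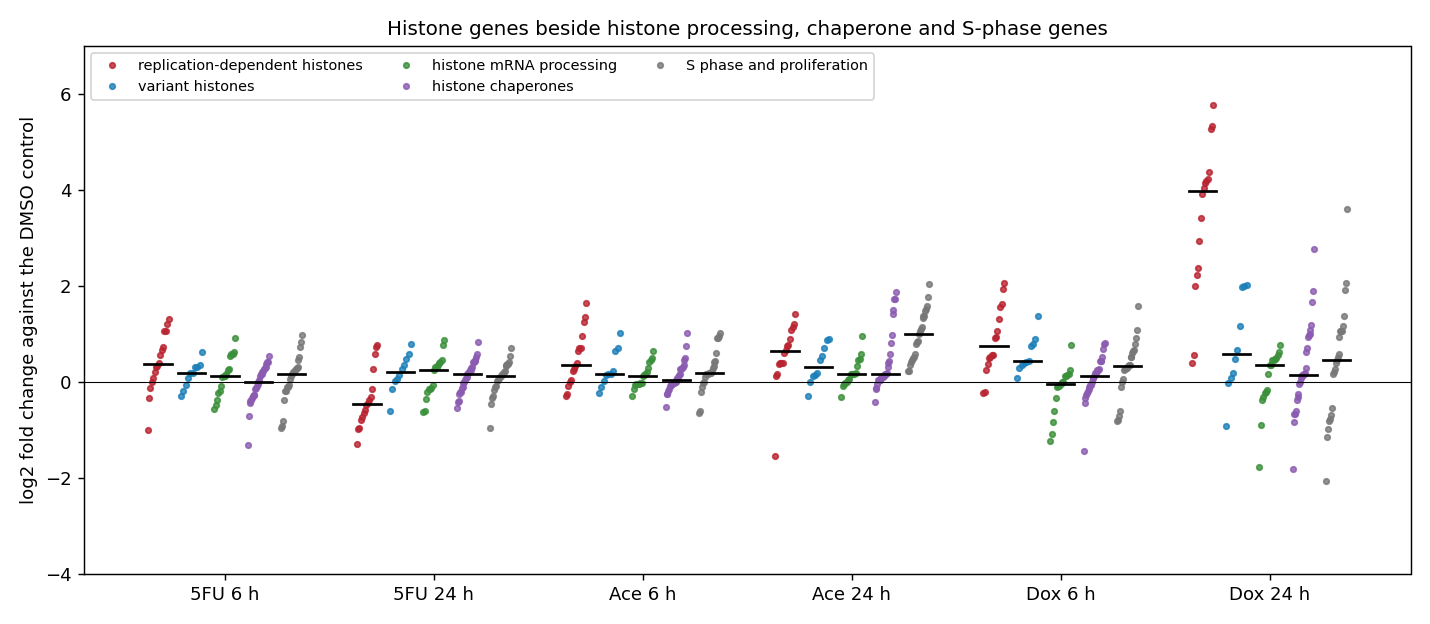
log2 fold change against the DMSO control (vertical axis) in the 6 drug comparisons (horizontal axis) of the 16 replication-dependent histone genes measured in controls, the 10 variants, and the processing, chaperone and S-phase genes. Points are genes and bars are medians. The replication-dependent median is 3.98 with Dox at 24 h, where that of the S-phase genes is 0.45.

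Markers of cell types moved in the same comparisons. With Dox at 24 h, 7 of 8 cardiomyocyte markers, 8 of 8 fibroblast markers, 6 of 6 endothelial markers and 6 of 7 macrophage markers were lower. There 1 macrophage marker was higher, and of all genes 41% were lower and 40.4% higher. The summed cardiomyocyte markers were 11538 to 15992 CPM with Dox and 36996 to 49496 CPM in DMSO2 at 24 h, and the fibroblast sums 1917 to 4064 and 15099 to 18894 CPM. Endothelial sums were 20.3 to 44.98 and 241 to 312 CPM, and macrophage sums 28.8 to 37.2 and 67.5 to 89.6 CPM. At 6 h cardiomyocyte sums were 35646 to 52068 CPM with Dox and 38518 to 44583 CPM in DMSO2. Of these markers 3 of 8 were higher and 3 lower, where 31.5% of all genes were higher and 32.7% lower. Markers of the other types differed at 6 h too. All 6 endothelial markers were lower, with sums of 69.03 to 118 against 202 to 259 CPM, and 6 of 8 fibroblast markers were lower, with 7758 to 10176 against 9687 to 14458 CPM. Of the macrophage markers 3 were higher and 2 lower, with 49.3 to 59.4 against 46.7 to 56.1 CPM. With Ace at 24 h 8 of 8 fibroblast, 5 of 6 endothelial, 5 of 7 macrophage and 2 of 8 cardiomyocyte markers were lower. There 1 cardiomyocyte marker was higher, and of all genes 19.1% were lower and 18.2% higher. The fibroblast sum was 7249.6 to 9277 CPM. With 5FU at 24 h 8 of 8 fibroblast, 5 of 8 cardiomyocyte, 5 of 6 endothelial and 2 of 7 macrophage markers were lower. There 1 cardiomyocyte marker was higher, and of all genes 27.8% were lower and 28% higher. Fibroblast sums were 5166 to 5837 CPM against 9972 to 19903 CPM in DMSO1. The part of these shifts in the histone levels was not tested.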

How the data were processed

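Gene expression was measured by RNA-seq of polyA-selected RNA in 65 libraries of 10 groups. The authors deposited estimated counts per gene as whole numbers, made with kallisto 0.46.0 (per the submitters' processing notes) on the Ensembl rat transcriptome and summed to genes, after removal of genes with low counts. Their table of differential expression was not used. Symbols came from the RefSeq annotation of GRCr8. Counts were scaled by TMM and fitted with edgeR 4.0.16 (R 4.3.3), with the 10 groups as terms and all 14554 genes in the fit. Quasi-likelihood tests gave 12 comparisons, and genes with FDR < 0.01 (Benjamini-Hochberg over all genes) were taken as DEGs. Errors are standard errors from the same fit. DESeq2 1.42.0, other scalings, filters and thresholds, and fits without each library were alternatives. The script was tested on simulated data. Named genes were all variants and replication-dependent genes with a mean count of at least 100 that were among the 3 largest DEGs in a direction of a drug comparison, with Hist1h2ai. The members and lists were chosen with earlier results of these data known. Library numbers are labels within a group and pair nothing. Intervals and floors (3 counts) cover counting error and spread between cultures only.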

Additional observations from a re-analysis of the deposited data

Results flagged for a closer look

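A library stood apart from the rest of its group, by the size of its gap to the nearest library over the range of the group, in 25 of 190 groups of values looked at (13.2%), where chance gives about 1 in 20. Library 1 of 5FU at 6 h accounted for 6 of them, each time as the highest, with a gap over range of 0.889 for H1f2, 0.708 for H2bc6, 0.729 for H3f3b, 0.867 for H4cl1, 0.811 for Hist2h2aa2 and 0.907 for the replication-dependent sum. In the same group library 2 stood apart for H3f3c (0.735). With 5FU at 24 h library 6 stood apart for Macroh2a1 (0.671).

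With Ace, library 3 at 6 h stood apart for H2ax (0.641) and library 6 for H3f3c (0.784). At 24 h library 1 did so for H1f2 (0.63), and library 2 for H2bc6 (0.638) and Hist2h2aa2 (0.8). With Dox, library 4 at 6 h stood apart for H1f2 (0.576), H2ax (0.61) and the replication-dependent sum (0.609). At 24 h library 6 was the lowest for H1f10 (0.623) and library 7 stood apart for H3f3a (0.572). In DMSO1 library 1 stood apart at 24 h for H2bc6 (0.807) and Hist3h2ba (0.711), and at 6 h library 1 was the lowest for H2aj (0.635) and library 2 for Macroh2a2 (0.627). In DMSO2 at 24 h, library 5 stood apart for H2az2 (0.627) and H3f3c (0.608), and library 4 for H2bc6 (0.665).

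The difference from the control changed between 6 and 24 h, by the test of that change in edgeR at FDR < 0.01, in 24 of 44 cases over the named genes and the 3 drugs, with the Dox values of replication-dependent genes left out because the family was selected on them. With 5FU the log2 change (24 h minus 6 h) was negative for H1f2 (-2.17), H4cl1 (-0.796), Hist1h2ai (-0.788), Hist1h2bo (-0.766), H2bc6 (-0.598), H3f3c (-0.448), H3f3a (-0.286) and H3f3b (-0.282). It was positive for H2az1 (0.86), Hist3h2ba (0.685), H2ax (0.466) and Macroh2a1 (0.3). The 6-hour differences of H1f2, H4cl1, Hist1h2ai and H2bc6 with 5FU were smaller without library 1 of that group. The changes of single genes between the times were not computed without it. With Ace the log2 change was -0.951 for H1f2, 1.15 for Hist3h2ba, 0.546 for H2aj and 0.315 for H2az1. Among the variants it was 1.28 for H2aj, 1.11 for H1f10, 0.619 for H3f3b, 0.364 for H2ax and 0.234 for H2az1 with Dox, and -1.01 for H2az2, -0.308 for Macroh2a2 and -0.303 for H3f3a.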

How the results depend on the processing

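No paired analysis was possible because the columns carry no replicate numbers. Of 288 counts under settings that kept all libraries, 244 stayed within 1.5 times the reported count and 44 did not. The cause was not tested, except that a minimum change removes genes by its construction. With an absolute log2 fold change of at least 1 as well, replication-dependent DEGs numbered 0 for 5FU at 24 h (7 without the minimum), 3 for Ace at 6 h (6), 5 for Ace at 24 h (9), 6 for Dox at 6 h (11), 3 from 6 to 24 h in the controls (10), and 3 and 1 for the change between times with 5FU (9) and Ace (2). Variant DEGs then numbered 0 for 5FU at 6 h and at 24 h, 1 and 0 for Ace at 6 and 24 h, 1 and 4 for Dox at 6 and 24 h, 0 over time, 0 between DMSO1 and DMSO2 at 6 h, and 0, 0 and 3 for the change between times with 5FU, Ace and Dox. Processing and chaperone DEGs numbered 1 and 0 for 5FU at 6 and 24 h, 1 and 5 for Ace, 3 and 7 for Dox, 6 over time, 0 between DMSO1 and DMSO2 at 6 h, and 1, 5 and 4 for the change between times with 5FU, Ace and Dox.

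At FDR < 0.1 there were 5 replication-dependent (2 at 0.01), 4 variant (2) and 20 processing and chaperone genes (12) for the change of the Ace difference, 8 variants for Ace at 6 h (4), and between DMSO1 and DMSO2 4 variants (1) and 21 processing and chaperone genes (8) at 6 h, and 2 replication-dependent and 3 processing and chaperone genes (0 and 0) at 24 h. With only the compared groups in the fit there was 1 replication-dependent DEG between DMSO1 and DMSO2 at 6 h, and there were 4 variant DEGs for 5FU at 6 h (7) and 3 for the change with 5FU (6). DESeq2 and scaling by library size each called 1 replication-dependent gene between DMSO1 and DMSO2 at 24 h, and library size gave 4 variants and 3 processing and chaperone genes at 6 h.

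Small differences changed sign. By library size alone H1f10 and Hist3h2ba with 5FU at 6 h were -0.0081 and -0.0027, H2az2 with Ace and Dox at 6 h was -0.013 and -0.070, Macroh2a1 with Ace at 24 h was 0.043, and Macroh2a2 with Dox at 24 h was 0.019. Macroh2a2 was 0.0099 in DESeq2 and 0.011 with DESeq2 size factors. Library size alone moved the median of all genes by -0.15 with Dox at 6 h. It also ended the calls of H2az2 (0.11), Hist1h2ai (0.26) and Macroh2a1 (0.097) with 5FU at 6 h, and of Macroh2a2 with Ace at 24 h (-0.23) and Dox at 6 h (0.12).

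Without 1 library each, replication-dependent DEGs numbered 4 to 8 for 5FU at 6 h (4 without 5FU library 1) and 0 to 1 between DMSO1 and DMSO2 at 24 h, variant DEGs 1 to 2 for the change with Ace, and processing and chaperone DEGs 5 to 10 and 0 to 1 between DMSO1 and DMSO2 at 6 and 24 h. Signs turned for H1f10 with 5FU at 6 h (-0.023 to 0.20) and 24 h (-0.026 to 0.12), H2az2 with Ace at 6 h (-0.0047 to 0.046), H3f3a with 5FU at 24 h (-0.0026 to 0.061), Macroh2a1 with Ace at 24 h (-0.037 to 0.018) and Macroh2a2 with Dox at 24 h (-0.053 to 0.027), none of which was a DEG. H3f3c with Dox at 24 h lost its call in 7 of 14 fits, Hist1h2ai with 5FU at 6 h in 5 of 12, and H2az2 with 5FU at 6 h in 4 of 12. Macroh2a1 with 5FU at 6 h lost its call without 5FU library 1 (0.14), and Hist2h2aa2 with 5FU at 24 h without DMSO1 library 4 (0.50).

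The levels are of polyadenylated RNA in cultures of 1 cell preparation. Genes at a few counts per library allow lower bounds only, and the split of reads between near-identical copies, H3f3a and H3f3c among them, was not tested.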
